A study of Mus musculus with 8 samples.

Results

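Of 183194 merged accessible regions found by ATAC-seq in mouse mammary tumor cells, 4087 carried a peak in each of the 8 libraries and lay more than 1 kb from every annotated transcription start site (TSS). These constitutive distal regions were selected on the peak calls themselves: the peaks of all libraries were merged wherever they shared at least 1 bp, and a region was kept when all 8 libraries had a peak in it. They made up 2.75% of the 148361 distal regions and 37.5% of the 10907 regions with a peak in all 8 libraries, the other 6820 being constitutive promoters within 1 kb of a TSS. ATAC-seq uses the Tn5 transposase to cut and tag DNA that is not covered by nucleosomes, so a peak marks a stretch of open chromatin.

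The cells were lines derived from tumors of PyMT mice, in which the polyoma middle T antigen drives mammary cancer, and the labels give the strain as FBV/N. Lines were wild type (WT) or Lats1-CKO, in which Lats1 had been deleted from the epithelial compartment, and the libraries carry no further treatment. Cells were sorted into luminal (EpCAM-high, CD49f-high) and basal-like (EpCAM-low, CD49f-high) populations and briefly expanded in culture before tagmentation. Each of the 4 groups held 2 libraries. The Lats1-CKO basal-like group consists of libraries BM8 and BM4, the WT basal-like group of BM6 with BM2. Luminal cells gave BM7 and BM3 from Lats1-CKO lines and BM5 plus BM1 from WT lines. Age, and whether the libraries of a group came from separate lines, are not stated in the labels, so the p-values below measure only the spread between these libraries, which may be technical. The Cre driver of the deletion is not given in the sources used here.

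Most open chromatin outside promoters differs between cell types, because distal elements are bound by transcription factors that each lineage expresses. Elements that are open in many cell states are often bound by factors present in most cells, such as CTCF, which folds chromatin into loops and insulates genes, or the FOS and JUN proteins of AP-1, which open enhancers in growing and stressed epithelial cells. LATS1 is a kinase of the Hippo pathway that phosphorylates YAP and TAZ and so keeps them from joining the TEAD factors on enhancers, many of which also hold AP-1 sites.

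BM3 stood apart from the other libraries. It had 14753 peaks, against 51497 to 99022 in the other 7, and it set the size of the class: of the 9262 distal regions with a peak in 7 libraries, 8448 (91.2%) lacked a peak in BM3 alone, and 8 to 286 lacked 1 of the other libraries alone. Without BM3, 12535 distal regions had a peak in all remaining libraries, whereas leaving out any other library gave 4100 to 4374. The study's methods state that 1 Lats1-CKO luminal replicate was set aside for quality without naming it. Promoters of the luminal markers Krt8, Krt18, Epcam, Cldn4 and Elf5 held a peak for all 5 genes in BM1, BM2, BM5 and BM7, for 4 in BM6, for 3 in BM3 and for 2 in BM4 and BM8. Of the basal-like markers (Krt5, Krt14, Trp63, Acta2 and Itga6), 2 or 3 of 5 had one in every library, and Trp63 had none in any. Fibroblast markers (0 to 3 of 5), immune markers (0 to 3 of 5) and endothelial markers (0 to 2 of 5) were also at times open, the immune ones in BM4, BM7 and BM8 only. The part of such cells in the results was not tested. The Lats1 promoter had a peak in 7 of 8 libraries, BM3 being without one, which says nothing about the deleted exons.

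**Figure D1:**
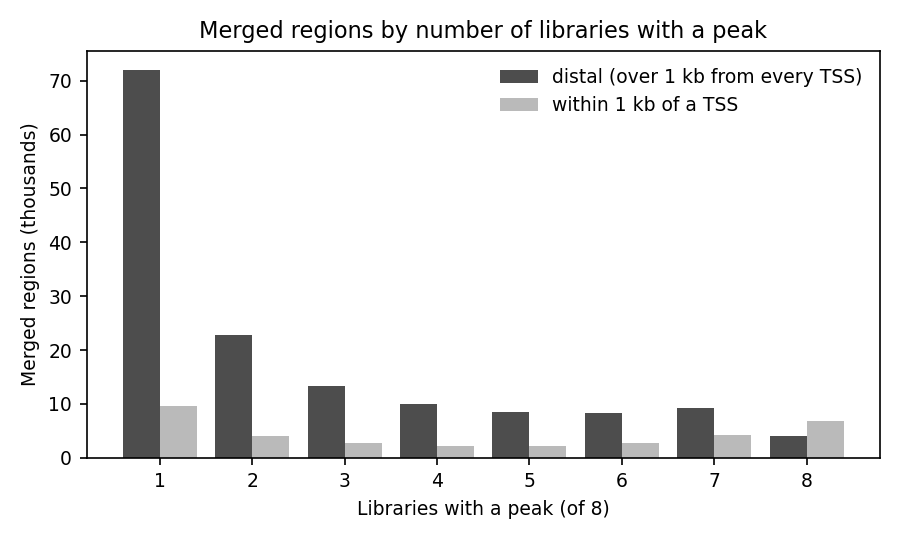
Number of merged regions, in units of 1000, by the number of libraries with a peak, for distal regions (dark bars) and regions within 1 kb of a TSS (light bars). Distal regions fell from 71965 in a single library to 4087 in all 8, and 8 libraries was the only class in which promoters, at 6820, outnumbered them.

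The sequences of a few members show what these regions look like. The first 3 are the members with the highest smallest score percentile over the 8 libraries, and the next is the highest-ranked member with a CTCF motif. The last 3 were chosen after their values were seen: the highest-ranked members near a YAP and TAZ target gene and near an AP-1 gene, and the member with the smallest p for genotype. Each is read from the plus strand of GRCm38 (mm10), whole or as its central 300 bp, and capitals mark matches to the CTCF motif, to AP-1 (TGANTCA) and to TEAD (GGAATG) on either strand.
Trpm6 intron, chr19:18890338-18890637: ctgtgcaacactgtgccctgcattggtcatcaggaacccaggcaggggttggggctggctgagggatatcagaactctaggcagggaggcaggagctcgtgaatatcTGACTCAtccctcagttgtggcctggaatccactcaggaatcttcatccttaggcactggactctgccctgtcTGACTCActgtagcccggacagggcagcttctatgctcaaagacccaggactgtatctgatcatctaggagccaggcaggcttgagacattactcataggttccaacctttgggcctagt
Arhgap28 intron, chr17:67989064-67989363: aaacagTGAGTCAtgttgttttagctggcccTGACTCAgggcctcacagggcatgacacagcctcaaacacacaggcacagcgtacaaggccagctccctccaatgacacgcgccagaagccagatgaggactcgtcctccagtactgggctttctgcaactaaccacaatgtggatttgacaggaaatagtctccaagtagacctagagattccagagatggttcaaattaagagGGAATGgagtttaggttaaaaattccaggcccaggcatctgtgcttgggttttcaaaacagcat
Cc2d2a intron, chr5:43692557-43692853: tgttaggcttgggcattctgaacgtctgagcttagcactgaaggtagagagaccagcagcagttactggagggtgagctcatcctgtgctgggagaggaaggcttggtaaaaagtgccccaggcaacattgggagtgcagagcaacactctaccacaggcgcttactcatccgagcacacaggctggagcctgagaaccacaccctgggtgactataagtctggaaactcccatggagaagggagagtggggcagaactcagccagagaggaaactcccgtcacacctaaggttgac
Arhgef10 intron, chr8:14992816-14993115: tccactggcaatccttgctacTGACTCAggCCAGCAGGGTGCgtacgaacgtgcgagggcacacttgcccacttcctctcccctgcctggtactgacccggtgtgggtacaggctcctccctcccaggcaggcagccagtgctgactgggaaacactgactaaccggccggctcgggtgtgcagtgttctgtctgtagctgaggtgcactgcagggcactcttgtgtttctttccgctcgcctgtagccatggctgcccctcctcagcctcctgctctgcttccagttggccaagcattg
Ptpn14, intergenic, chr1:189716382-189716681: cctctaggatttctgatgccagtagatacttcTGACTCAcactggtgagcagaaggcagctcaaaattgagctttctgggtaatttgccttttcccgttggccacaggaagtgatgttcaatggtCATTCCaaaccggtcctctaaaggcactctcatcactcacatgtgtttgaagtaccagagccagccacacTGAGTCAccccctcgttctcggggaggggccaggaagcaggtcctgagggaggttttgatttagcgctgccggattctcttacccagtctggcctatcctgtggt
Fos, intergenic, chr12:85455159-85455458: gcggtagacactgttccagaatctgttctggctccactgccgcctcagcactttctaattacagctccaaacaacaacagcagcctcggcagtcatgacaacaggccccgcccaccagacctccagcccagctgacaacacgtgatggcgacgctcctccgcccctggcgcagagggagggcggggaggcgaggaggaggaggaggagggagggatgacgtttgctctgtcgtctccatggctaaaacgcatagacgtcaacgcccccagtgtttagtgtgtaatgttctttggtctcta
Cftr, overlapping an exon, chr6:18271034-18271333: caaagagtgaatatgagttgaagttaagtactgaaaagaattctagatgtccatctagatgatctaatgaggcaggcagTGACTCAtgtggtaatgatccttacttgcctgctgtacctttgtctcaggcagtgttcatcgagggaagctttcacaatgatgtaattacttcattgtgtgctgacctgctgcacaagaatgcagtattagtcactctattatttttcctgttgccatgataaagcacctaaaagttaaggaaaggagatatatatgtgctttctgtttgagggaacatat

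The Trpm6 stretch held 2 AP-1 matches and the Arhgap28 stretch 2 AP-1 matches and 1 TEAD match, whereas the Cc2d2a region held none of the 3 motifs. The Arhgef10 stretch held 1 CTCF and 1 AP-1 match close together. The Ptpn14 stretch held 2 AP-1 matches and 1 TEAD match, the Cftr stretch 1 AP-1 match, and the Fos stretch none. Their GC content ran from 38.7% (Cftr) to 61.3% (Arhgef10).

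The members were wider than other distal regions and poor in CpG. Their median width was 355 bp (quartiles 276 and 464 bp, range 107 to 1238 bp), against 415 bp for constitutive promoters, 273 bp for the distal regions that lacked a peak in BM3 only, and 102 bp for distal regions with a peak in a single library. A merged width grows with the number of peaks merged, so widths of classes defined by the number of libraries are given as a description. In 3611 members (88.4%) every library had exactly 1 peak, and 3977 members (97.3%) had bases shared by the peaks of all 8 libraries, with a median of 110 shared bp. The median peak inside a member was 208 to 280 bp wide in 7 libraries, where the median over all peaks was 116 to 157 bp. BM3 went the other way, with 128 bp in members and 138 bp over all its peaks.

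Base composition set the members apart from promoters. Median GC content over the central 400 bp was 50.5% in members, 64.2% in constitutive promoters and 46.2% in the distal regions with a peak in fewer than 8 libraries. The ratio of observed to expected CpG was 0.226 in members and 0.811 in promoters. By a limit of GC over 50% and a ratio over 0.6, 202 members (4.94%) were CpG-rich, against 81.0% of promoters and 0.732% of distal regions in fewer than 8 libraries. Repeats covered more than 50% of the window in 55 members (1.35%) and in 8.6% of those other distal regions. None of the members shared sequence with mitochondrial DNA, a common source of false ATAC-seq peaks. Only 2 of all 183194 merged regions did, so this does not set the members apart.

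Members lay in introns and between genes in nearly equal numbers. Introns held 1914 (46.8%), intergenic sequence 1886 (46.1%), and 287 (7.02%) overlapped an exon of an annotated transcript. The median distance to the nearest TSS of any gene was 10839 bp, and to the nearest protein-coding TSS 19124 bp. By distance to any TSS, 1088 members lay within 5 kb, 1792 between 5 and 20 kb, 831 between 20 and 50 kb, 280 between 50 and 100 kb, and 96 farther away. For 2216 members (54.2%) the nearest gene of any kind was protein-coding, and for 566 (13.8%) it was a lincRNA. RefSeq places a transcript start within 1 kb of 215 members (5.26%), so a small part of the class may be promoters in another annotation. Curated RefSeq enhancers overlapped 38 members (0.93%) and 0.267% of all merged regions.

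The rule's limit of 1 kb cut through a continuum. The 175 members up to 500 bp beyond that limit had a median width of 305 bp and a median score percentile of 84.7 (the median over libraries of each library's median). The 292 regions with a peak in all 8 libraries that lay up to 500 bp inside it had 330 bp and 83.1. The other limit, presence in every library, was set mostly by BM3. Of the 9262 distal regions with a peak in 7 libraries, 8448 lacked BM3 alone, and 8 to 286 lacked each of the others alone. The lowest score that any list holds is 13, and 72 members scored under 20 in BM3 and 38 in BM5, against 0 to 9 in the other libraries. Scores are not normalised between libraries, so these counts do not show which library set the limit.

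Each peak carries a score, and its percentile is its rank among all peaks of the same library, with 100 the strongest. Members were among the stronger peaks of 7 libraries. The median percentile over the members in the WT libraries was 85.8 (BM5) and 87.5 (BM1) for luminal cells and 82.9 (BM6) and 89.2 (BM2) for basal-like cells. In the Lats1-CKO libraries it was 89.9 (BM7) for luminal cells and 89.5 (BM8) and 88.8 (BM4) for basal-like cells. In BM3 it was 48.9, so the libraries of the Lats1-CKO luminal group did not resemble each other. The range of WT basal-like overlapped those of WT luminal and of Lats1-CKO basal-like, and the latter pair did not overlap each other. Members took 28.3% of the peaks of BM3 but 4.25% to 8.29% of the peaks of the other libraries. A larger share lowers the highest median that members can reach, and its part in the BM3 value was not tested. In BM3, 48.2% of the members lay above the library's median peak, against 88.9% to 96.0% in the other libraries. The distal regions that lacked a peak in BM3 only are split from the members by the call in that library, which had the fewest peaks. As a description of this selection, they had medians of 60.4 to 77.9 in the other 7 libraries, below the members in each of them. Constitutive promoters had medians of 84.4 to 92.1 in those 7 libraries and 65.7 in BM3, and members were above them in BM2 and BM5.

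**Figure D2:**
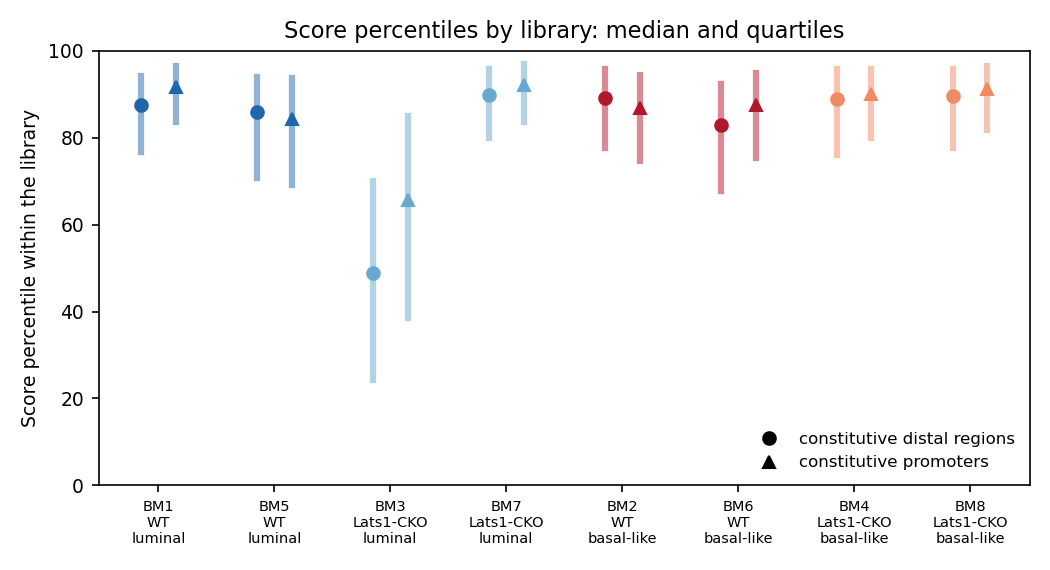
Score percentile within each library for constitutive distal regions (circles) and constitutive promoters (triangles), with the median as the symbol and the quartiles as the bar, colored by group. Members had medians of 82.9 to 89.9 in 7 libraries and 48.9 in BM3.

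Single members varied more between libraries than promoters did. The range of a member's 8 percentiles had a median of 52.4, or 27.3 without BM3, against 35.0 and 19.1 for constitutive promoters. BM3 gave the lowest percentile for 2865 members (70.1%), and BM4 and BM8 gave the highest for 968 and 811. In 1617 members (39.6%) all 8 percentiles were above 50, and in 144 they were all above 90. Over the 4087 members, Spearman's correlation of scores between libraries ran from 0.307 to 0.743. It was 0.407 to 0.620 for the 4 pairs of the same group, 0.307 to 0.743 for the 8 pairs of the same genotype but different populations, and 0.428 to 0.646 for the 8 pairs of the same population but different genotypes. The highest was between BM1 and BM2, which are WT luminal and WT basal-like. Members share their libraries' depth and base composition, so these correlations are a description. The 8 pairs that differ in both genotype and population ran from 0.384 to 0.648, and the ranges of all these kinds of pair overlapped. So pairs of the same group were not set apart from pairs that share neither label.

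The strongest members across all 8 libraries mostly lay in introns and mostly held an AP-1 match. The first, chr19:18890205-18890771, lies in an intron of Trpm6, a magnesium channel, 49.6 kb from its nearest TSS. Its percentile was at least 99.6 in every library, the lowest being BM3. The second, chr17:67988908-67989519 in an intron of Arhgap28, which encodes a GTPase-activating protein, reached 99.1 in BM7 and 99.4 to 99.9 elsewhere. The third, chr5:43692557-43692853 in an intron of the cilium gene Cc2d2a, had 99.1 in BM3 and 99.9 or more in the other libraries. Next came members in introns of Steap3, a ferrireductase gene (smallest percentile 99.1), and Fam180a (98.8), then a member in an intron of Macrod2 whose nearest coding TSS is that of Flrt3, an adhesion gene (98.7). Intergenic members near Klrb1c (98.7) and Cep162 (98.6, at 209 kb from the TSS), and intronic ones in Tram2 and Apoh (98.5 each), completed the 10. AP-1 matched in 8 of the 10, all but those at Cc2d2a and Klrb1c, TEAD in 2 and CTCF in none.

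AP-1 was the most common of the 15 motifs searched in the members. A match to TGANTCA stood in the central 400 bp of 2365 members (57.9%), in 9.74% of constitutive promoters, in 47.8% of the distal regions lacking BM3 only, and in 31.7% of all merged regions. The share rose with the number of libraries, from 29.0% of distal regions with a peak in a single library to 41.1% at 4 libraries and 57.9% at 8. TEAD (GGAATG) matched in 30.8% of members, in 28.6% of the distal regions lacking BM3 only and in 25.5% of all regions. For RUNX (TGTGGTT) the shares were 16.3%, 14.3% and 12.4%, so for both motifs the members were near the distal regions most like them. Both were lower in promoters, at 14.5% and 4.56%. AP-1 and TEAD stood together in 731 members (17.9%). Such shares count letters in a window whose GC content differs between the classes, and they are no evidence of binding.

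Several motifs were more common in promoters than in members. SP and KLF boxes (GGGCGG) matched in 15.7% of members and 78.0% of promoters, ETS (CCGGAAG) in 3.35% and 22.8%, NF-Y (CCAATCA) in 4.92% and 15.5%, NRF1 (GCGCATGC) in 1.13% and 6.69%, CREB (TGACGTCA) in 1.17% and 4.06%, and YY1 (AAGATGGC) in 2.15% and 6.20%. Over all merged regions, which include promoters, the shares were 14.8% for GGGCGG, 3.45% for ETS, 4.75% for NF-Y, 1.03% for NRF1, 0.735% for CREB and 2.61% for YY1. In distal regions with a peak in fewer than 8 libraries they were 7.11%, 1.78%, 4.29%, 0.581%, 0.454% and 2.43%, in the same order. So members were above other distal regions for all of these but YY1. For GGGCGG the share rose from 6.04% of distal regions in a single library to 15.7% at 8. Lineage motifs were near the level of all regions: FOX (TGTTTAC) 6.12% in members and 5.97% in all, SOX (ACAATG) 20.9% and 20.6%, GRHL (AACNNGTT) 5.53% and 6.28%, and the ZEB and SNAI box (CAGGTG) 26.3% and 24.9%, with 23.1% in promoters. The MYC and USF box (CACGTG) matched in 7.63% of members and 6.44% of all regions. It cannot overlap the ZEB and SNAI box on the same bases in full, but both belong to the E-box family.

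CTCF did not follow the order of AP-1. Its motif, with at most 1 mismatch, rose from 7.96% of distal regions in a single library to 25.9% in 7 libraries and was 15.5% (632 regions) in the members. The distal regions lacking a peak in BM3 only had 26.5%, and the part of BM3 in the fall at 8 libraries was not tested. Counted over the other 7 libraries, the share fell less, from 24.9% of regions in 6 to 22.9% of regions in all 7. Within the members, the 1022 with the lowest smallest percentiles (up to 21.3) held CTCF in 19.0% and AP-1 in 53.5%, and the 1022 with the highest (from 62.9) held CTCF in 11.2% and AP-1 in 64.7%. Among the 3000 highest-scoring distal regions of each library, CTCF matched in 6.50% to 14.0%, and AP-1 in 50.6% to 71.3%, with BM2 and BM4 the highest for AP-1 and BM3 for CTCF. Those 3000 are 47.9% of the distal regions of BM3 but 4.04% to 8.94% of those of the other libraries. Over all distal regions of a library, CTCF matched in 15.8% (BM3) to 20.8% (BM6) and AP-1 in 34.3% (BM7) to 49.6% (BM2). In every library the 3000 had the lower CTCF share and the higher AP-1 share.

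**Figure D3:**
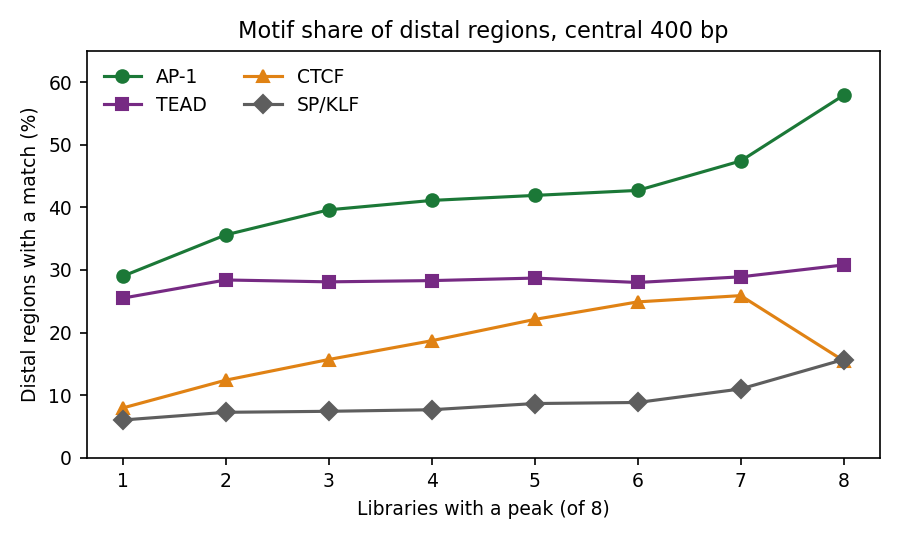
Share of distal regions (%) whose central 400 bp held an AP-1, TEAD, CTCF or SP/KLF motif, by the number of libraries with a peak. AP-1 rose to 57.9% at 8 libraries, whereas CTCF reached 25.9% at 7 and was 15.5% at 8.

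Members with a CTCF match and no AP-1 match were a narrow class. There were 455 of them, with a median width of 227 bp (quartiles 182 and 288 bp), against 372 bp (301 and 466 bp) for the 2188 with AP-1 and no CTCF, and 325 bp for the 177 with both. Distal regions lacking BM3 only showed the same order, with 184 bp for 1816 CTCF regions and 308 bp for 3611 AP-1 regions. CTCF members were also weaker in WT cells, with median percentiles of 75 (BM5) and 78.7 (BM1) in luminal and 75.3 (BM6) and 75.9 (BM2) in basal-like libraries. The AP-1 members had 88.8, 89.3, 84.0 and 92.3 in the same libraries. In Lats1-CKO libraries CTCF members had 38.6 (BM3) and 86.4 (BM7) in luminal and 85.6 (BM8) and 79.7 (BM4) in basal-like cells, and AP-1 members 52.1, 90.4, 90.5 and 92.5. In every library the AP-1 members had the higher median.

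CTCF and AP-1 matches were densest at the centres. Of 690 CTCF matches in members, 59.6% lay within 50 bp of the region's centre, against 25% for matches spread evenly over the 400 bp. For 3339 AP-1 matches it was 44.2%, and for 1543 TEAD matches 31.2%, with the most per 20-bp bin (205) between 40 and 60 bp from the centre.

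**Figure D4:**
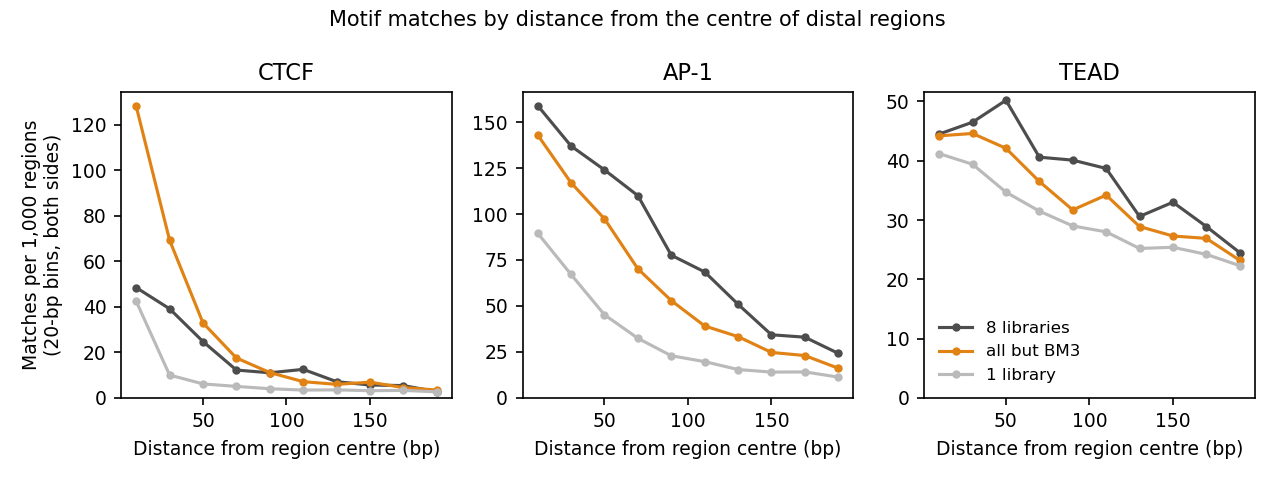
Motif matches per 1,000 regions in 20-bp bins of distance from the region centre, for constitutive distal regions, distal regions lacking a peak in BM3 only, and distal regions in 1 library. CTCF and AP-1 fell steeply with distance, with 59.6% and 44.2% of the members' matches within 50 bp, and TEAD fell less, with 31.2%.

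Most members stood alone. With neighbouring members joined across gaps of up to 12462 bp (the next wider gap, 12504 bp, was not joined), 335 clusters of at least 2 held 710 members (17.4%), of which 301 were pairs, 30 had 3 members, 3 had 4 and 1 had 6. The median gap between neighbouring members was 212698 bp and the median span of a cluster 6622 bp. The cluster of 6 lay in an intron of Dlgap1, a scaffold gene of synapses, at chr17:70719962-70747120. Its members' smallest percentiles ran from 17.9 to 81.2, and 4 held AP-1. The most even of them, chr17:70728659-70729332, had percentiles of 81.3 and 91.8 in WT luminal, 89.1 and 87.5 in WT basal-like, 81.2 (BM3) and 91.7 in Lats1-CKO luminal, and 87.5 and 90.7 in Lats1-CKO basal-like libraries, so that all 4 groups overlapped. Its neighbour chr17:70720846-70721171 had 18.7 in BM6, 22.9 in BM7 and 17.9 in BM3 but 60.9 to 91.2 in the other libraries.

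The clusters of 4 lay in Arhgap28 (chr17:67974797-67996341), between Spty2d1 and Tmem86a (chr7:47015716-47031685), and around Eef1g and the 5′ side of Ahnak (chr19:8976675-8984851). Eef1g encodes an elongation factor subunit and Ahnak a very large scaffold protein of the cell cortex. Of the clusters of 3, those with the highest median percentile lay in a noncoding gene far downstream of Sox9 (chr11:113061006-113074876, 96.1), upstream of Zfp438 on chromosome 18 (94.8), in Cdc42ep4, which encodes a CDC42 effector (chr11:113729961-113735544, 93.8), and downstream of the cyclin gene Ccnl1 (chr3:65922565-65929707, 93.0). In Cdc42ep4 BM4 was low, with a median of 65.7 against 88.0 to 99.3 in the other libraries. At Ccnl1 BM3 was low, with 7.46 against 84.7 to 95.7.

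By nearest protein-coding TSS the members fell to 2902 genes, of which 2124 had a single member. Sox9, a transcription factor of progenitor and basal mammary cells, had the most, with 10 members spread over 486 kb (chr11:112615608-113101241) at 6.14 to 319 kb from its TSS. The gene was nearest to 224 distal regions in all, of which the members were 4.46%, against 2.75% over all distal regions. AP-1 matched in 5 of the 10, TEAD in 2 and CTCF in none. Their median percentile was 98.8 and 99.4 in WT luminal, 87.5 and 99.7 in WT basal-like, 64.6 (BM3) and 96.9 in Lats1-CKO luminal, and 99.1 and 91.3 in Lats1-CKO basal-like libraries, with the WT and Lats1-CKO libraries overlapping. The member with the highest smallest percentile there, chr11:113008526-113008957, reached at least 90.7 in all libraries.

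Runx1, a transcription factor of luminal and basal mammary cells, had 8 members of 83 distal regions (9.64%) over 398 kb, 7 with AP-1 and 4 with TEAD. Tiam2, which encodes an activator of RAC, also had 8, of 33 distal regions (24.2%), all in introns and over 191 kb. Kirrel3 (an adhesion gene), Nfatc2 (a calcium-regulated factor), Phlda1 and Zmiz1 (a transcriptional coactivator) had 7 each. Of these, 6, 6, 6 and 5 members held AP-1. Afap1l2, an actin-associated adaptor gene, Arid1b, a subunit gene of the BAF remodeling complex, and Ccnl1 had 6 each. Over these 10 genes the members were 4.46% (Sox9) to 25% (Afap1l2) of the distal regions nearest to the gene, so the order by count is not the order by share. For the same 10 genes, median percentiles per library were 79.5 to 99.7 in BM8, BM7, BM5, BM4, BM2 and BM1, 75.7 to 93.4 in BM6 and 17.5 to 68.8 in BM3.

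Several gene lists bear on the study's question of luminal and basal identity and the Hippo pathway. For reading these counts, 2.75% of all distal regions were members. Of the distal regions nearest to 20 Hippo kinases and partners, 17 of 321 (5.30%) were members, at 10 of the genes. They included regions near Amotl2, an angiomotin that binds YAP (chr9:102737296-102737738, smallest percentile 92.1), in Tead1 (chr7:112823723-112824034, 87.1) and Tead4 (chr6:128282125-128282649, 80.1), and overlapping an exon in Wwtr1, the gene of TAZ (chr3:57501641-57502163, 72.7). All of these held AP-1. AP-1 matched in 12 of the 17 and TEAD in 5. Near the list of YAP and TAZ targets there were 24 of 571 (4.20%), with 5 nearest to the membrane-repair gene Myof, 4 to Nt5e, 3 each to Asap1 and Tgfb2, and 2 to Ccn1. The highest, upstream of Ptpn14 (chr1:189716309-189716755), had percentiles of 96.1 and 99.2 in WT luminal, 98.1 and 98.2 in WT basal-like, 95.2 (BM3) and 95.9 in Lats1-CKO luminal, and 98.9 and 99.2 in Lats1-CKO basal-like libraries. This member was named for its high smallest percentile, so a small spread between libraries follows from the choice.

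Genes of the AP-1 factor list were nearest to 18 members of 207 distal regions (8.70%). The list also held genes other than those of FOS and JUN proteins, such as Bach2, Bach1 and Mafk. Of the 18, 5 were at Bach2, 3 at Fos, 2 each at Jun, Atf3, Fosb and Bach1, and 1 each at Mafk and Junb. The Fos member chr12:85454915-85455702, 18.2 kb upstream, ran from 91.6 in BM3 to 98.3 in BM7 and BM8. Of luminal genes, 8 of 20 had 14 members (4.73% of 296), with 2 each at Krt8, Epcam, Gata3, Ehf, Cdh1 and Cldn4. Those members had lower medians in BM4 (68.3), BM6 (59.8) and BM8 (74.0) than in WT luminal cells (79.9 in BM5, 81.9 in BM1) and in BM2 (82.0) and BM7 (82.1), and 32.6 in BM3. The stronger of the Epcam members, chr17:87609584-87610156, had 91.2 and 93.3 in the WT luminal libraries, 76.5 and 64.2 in WT basal-like, 67.6 in BM3, 87.0 in BM7, and 75.3 and 72.8 in Lats1-CKO basal-like. Here both WT luminal libraries were above all others. The other, chr17:87620013-87620319, did not share that order, with 75.4 and 72.8 in WT luminal, 89.4 and 87.1 in WT basal-like, 29.2 (BM3) and 93.4 in Lats1-CKO luminal, and 21.6 and 80.7 in Lats1-CKO basal-like. Both Cdh1 members lie in an intron of the E-cadherin gene. The stronger, chr8:106619424-106620044, had 68.4 and 90.7 in WT luminal, 88.1 and 92.4 in WT basal-like, 62.9 (BM3) and 91.1 in Lats1-CKO luminal, and 91.4 and 84.6 in Lats1-CKO basal-like, and its groups overlapped. The weaker, chr8:106608340-106608635, had 82.6 and 77.1 in WT luminal, 80.4 and 19.6 in WT basal-like, 12.9 (BM3) and 40.0 in Lats1-CKO luminal, and 58.5 and 18.5 in Lats1-CKO basal-like, so that 1 WT basal-like library lay among the Lats1-CKO ones.

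Basal and myoepithelial genes had 17 members (3.35% of 508), 10 of them at Sox9, 2 at Itgb4 and 1 each at Lamb3, Egfr, Trp63, Col17a1 and Itga6. Actin, adhesion and matrix genes had 21 (4.51% of 466), with 5 at the myosin gene Myh9. The member 14.0 kb upstream of Actb, chr5:142920737-142921089, was among the strongest of the class, at 98.1 in BM3 and 98.6 to 100 elsewhere. Genes of corepressors and deacetylases had 12 (3.55% of 338), of which 4 were at Tbl1xr1, with AP-1 in 2 of the 12. Factors of epithelial-mesenchymal transition had 9 (3.25% of 277), of which 5 were at Tcf4 and 1 each at Twist1, Twist2, Zeb1 and Zeb2. Fibroblast genes had 4 (2.35% of 170), endothelial genes 3 (1.69% of 178), and immune genes 0 of 44. The lists are small, a region's nearest gene need not be its target, and no test of these shares was run.

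The genotype and population comparisons asked whether scores within the shared regions differed between groups. They used limma on the quantile-normalised log2 score of the 10907 regions with a peak in all 8 libraries. A region without a peak in some library was not fitted, so regions that closed in a group could not be called. The counts below therefore cover only differences in score among regions open in every library. For genotype (Lats1-CKO against WT, both populations), 0 members passed an adjusted p of 0.05 in either direction, and 0% of all regions did. The smallest limma adjusted p was 0.387. At an unadjusted p under 0.05, 151 members (3.69%) were higher and 243 (5.95%) lower in Lats1-CKO, where 3.05% and 3.28% of all regions tested were. For population (basal-like against luminal, both genotypes), 0 members passed, against 0% of all regions, with a smallest adjusted p of 0.537. At an unadjusted p under 0.05, 225 members (5.51%) were higher and 154 (3.77%) lower in basal-like cells, against 2.77% and 2.98% of all regions. The interaction, which asks whether the genotype difference was unlike in the 2 populations, also gave 0 members and 0% of regions, and unadjusted counts of 85 (2.08%) and 97 (2.37%) against 1.47% and 1.49%. Which direction had the larger unadjusted count changed with the setting, and no region is called from these counts. For genotype it turned to 154 higher and 104 lower without BM2 and to 175 and 127 without BM5, and the logit of the percentile gave 21 and 182. For population it turned to 162 higher and 242 lower without BM2, to 113 and 159 without BM4, and to 191 and 199 with median-centred scores. Members' median log2 difference was −0.05 for genotype and 0.10 for population, against 0.01 and −8.72e-04 over all tested regions. Quantile normalisation gives each library the same set of scores over these regions, so the values over all of them are held near 0 by the method. With each library left out in turn, the members' genotype median ran from −0.126 (without BM1) to −0.00716 (without BM5) and the population median from 0.0327 (without BM1) to 0.151 (without BM5).

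By motif, the median log2 difference of Lats1-CKO from WT was 0.15 in members with CTCF and no AP-1 and −0.11 in those with AP-1 and no CTCF. For basal-like minus luminal cells it was −3.66e-03 and 0.16. With each library left out in turn, the genotype medians ran from 0.0648 (without BM1) to 0.215 (without BM5) for CTCF and from −0.207 (without BM6) to −0.0360 (without BM2) for AP-1. The population medians ran from −0.0900 to 0.0907 for CTCF and from 0.0993 to 0.245 for AP-1. The regions of a motif class share the libraries, so these medians have 2 libraries per group behind them and were not tested.

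The member with the smallest p for genotype was chr6:18271033-18271335 at Cftr, a chloride channel gene of epithelia. Its percentile was 98.4 and 99.7 in WT luminal, 94.4 and 99.8 in WT basal-like, 78.2 (BM3) and 93.5 in Lats1-CKO luminal, and 21.6 and 29.2 in Lats1-CKO basal-like libraries. All 4 Lats1-CKO libraries were below all 4 WT libraries, by the most in basal-like cells. Its log2 score was lower in Lats1-CKO by a difference of −2.28 (SE 0.328, limma adjusted p = 0.387), which did not pass the threshold. The same order held for a member in an intron of the zinc transporter gene Slc39a11 (chr11:113487411-113488004) for 3 of the 4 Lats1-CKO libraries. It had 98.8 and 96.2 in WT luminal, 97.9 and 60.4 in WT basal-like, 34.9 and 88.2 in Lats1-CKO luminal, and 14.8 and 8.57 in Lats1-CKO basal-like. Upstream of Abca5 (chr11:110358201-110358578) the percentiles were 99.2 to 100 in WT and 86.8 to 95.2 in Lats1-CKO, without overlap.

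On the higher side, a member in an intron of Cd300c, a receptor gene of myeloid cells (chr11:114965376-114965819), had 20.6 and 8.20 in WT luminal, 44.6 and 13.2 in WT basal-like, 20.1 and 50 in Lats1-CKO luminal, and 87.9 and 89.8 in Lats1-CKO basal-like. The groups overlapped through BM3, and the log2 difference was 1.85 (SE 0.335, limma adjusted p = 0.614). Cd300c is an immune gene, and immune marker promoters had peaks in BM4 and BM8, at 2 and 3 of 5, and in BM7 at 1, against 0 in BM3 and the WT libraries. Their part in this value was not tested. Members near Gm6793 (chr8:112034735-112034964, 39.8 to 56.8 in WT and 58.9 to 91.5 in Lats1-CKO) and near the kinase gene Pim1 (chr17:29440018-29440372, 16.3 to 40.8 and 24.3 to 82.1) followed, with adjusted p = 0.614 each by limma.

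For population, the members with the smallest p were 36.0 kb from Phlda1 (chr10:111543723-111544256), near Gm4952 (chr19:12592010-12592207) and in Igfbp7, a secreted binding protein gene (chr5:77384231-77384499), all higher in basal-like cells. The Phlda1 member had 54.9 and 53.2 in WT luminal, 17.9 and 76.1 in Lats1-CKO luminal, 88.1 and 79.2 in WT basal-like, and 99 and 94.4 in Lats1-CKO basal-like. The populations did not overlap, with BM3 the lowest of all. Members near Gypc on chromosome 18, in a noncoding gene at BC067074 (chr13:113454538-113454927) and in Hs3st1 (chr5:39659469-39659711) were lower in basal-like cells, most of all in BM4 and BM8. The Gypc member, near a gene of an erythrocyte membrane protein, had 97.2 and 88.6 in WT luminal, 94.2 and 96.9 in Lats1-CKO luminal, 83 and 81.5 in WT basal-like, and 28.3 and 45.6 in Lats1-CKO basal-like. Its log2 difference was −1.85 (SE 0.300, limma adjusted p = 0.537). For the other 5 members the limma adjusted p was 0.787.

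**Figure D5:**
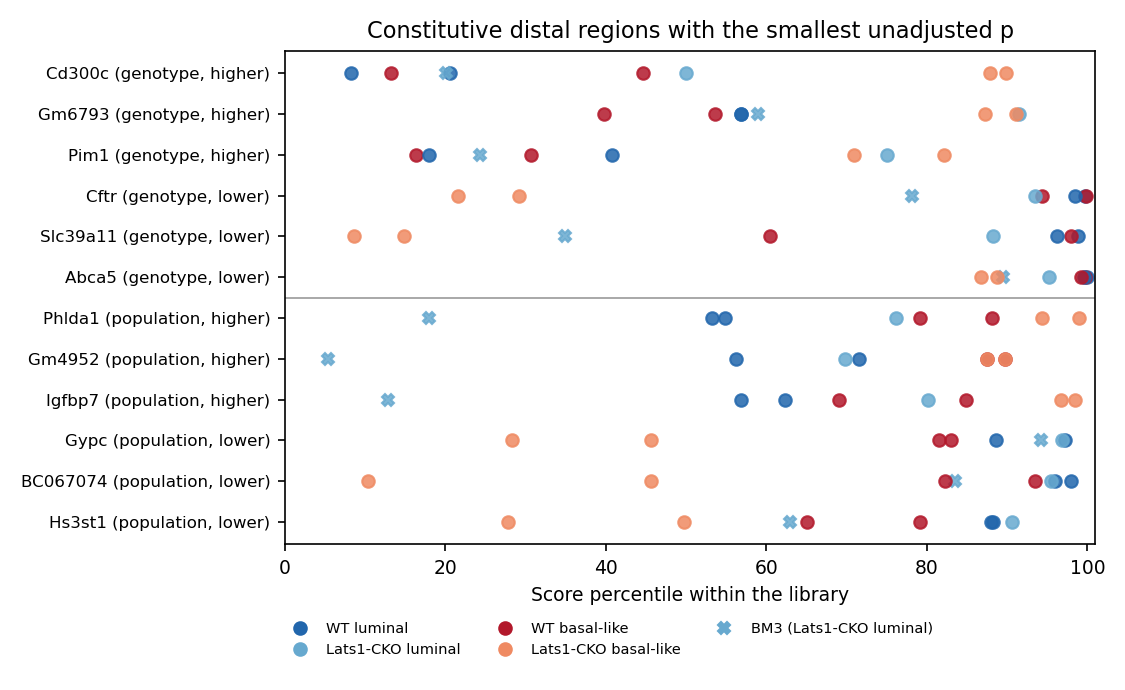
Score percentile in each library for the 12 constitutive distal regions with the smallest unadjusted p for genotype (top 6) and population (bottom 6), 1 point per library colored by group, with BM3 as a cross. In Cftr, Slc39a11, Cd300c, Gypc, BC067074 and Hs3st1 both Lats1-CKO basal-like libraries lay apart from the other 6, in Phlda1, Gm4952 and Igfbp7 BM3 was the lowest, and none of the 12 passed an adjusted p of 0.05.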

How the data were processed

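ATAC-seq was measured in 8 libraries of cultured mouse PyMT tumor cells, 2 for each of 4 groups taken from the labels. The authors trimmed reads with cutadapt, aligned them to mm10 with Bowtie 1.0.0, removed duplicates with Picard 2.3.0, excluded long fragments and blacklisted positions, and called peaks in each library with MACS2. The submitters' processing notes give MACS2 2.1.1.20160309, whereas the paper's methods name another version. The deposited lists hold 1 score per peak, which was taken to be that of MACS2, is not normalised between libraries and depends on depth. Read counts are not in these lists, so depth per library is unknown and no interval for counting error is given.

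Peaks sharing at least 1 bp were merged. The GENCODE M21 annotation gave the TSSs, and the GRCm38.p6 genome of RefSeq, in which all coordinates lay within the chromosome lengths, gave the sequence. The highest score of a library in a region gave its percentile. The 10907 regions with a peak in all 8 libraries were fitted with limma 3.58.1 (R 4.3.3) on quantile-normalised log2 scores with genotype, population and their interaction as terms, and Benjamini-Hochberg adjusted p at 0.05. The fit was tested on simulated data. The fit used all 8 libraries with no imputed value, and alternatives left out each in turn. A score is not a count, so no count model was used, and the study's read-based comparison was not repeated. Matches to 15 motifs were counted on either strand within the central 400 bp.

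Regions were named by rule: the 10 members with the highest smallest percentile, the 8 largest clusters (ties by median percentile), the 10 genes nearest to most members (ties by name), the 3 members with the smallest p in each direction for genotype and population, and up to 4 examples for each of 11 gene lists. The members, lists and tests were chosen with earlier results of these data known. Scripts ran under pysam 0.24.0, pandas 2.3.3 and python 3.11.15.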

Additional observations from a re-analysis of the deposited data

How the results depend on the processing

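The number of constitutive distal regions was 4087, and 665 when only the 10000 highest-scoring peaks of each library were kept. Leaving out each library in turn gave 4100 to 12535, the highest without BM3. The other settings (touching peaks or peaks up to 100 bp apart merged, bases shared by all 8 libraries required, 5 kb in place of 1 kb, TSSs of protein-coding genes only, autosomes only) gave 2999 to 4431. Regions near RefSeq transcript starts or rich in CpG were left out in 2 alternatives chosen after seeing the data, as were the libraries for motif shares, and 3872 and 3885 members remained.

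The CTCF share of 15.5% was 12.45% in the central 200 bp, 4.53% with no mismatch and 14.1% beyond 5 kb, and 15.2% to 22.9% with a library left out, the highest without BM3. The AP-1 share of 57.9% was 46.7% in the central 200 bp, 59.6% beyond 5 kb and 60.3% without CpG-rich regions, and 51.1% to 57.9% with a library left out, the lowest without BM3. The 335 clusters became 164 with a gap of 5 kb and 665 with 50 kb, and 336 to 1661 with a library left out, the highest without BM3.

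A fit without 1 library assumes that the lone library of its group varies like the others. In the limma fits for genotype, population and interaction, 0 members passed an adjusted p of 0.05 under every setting run (logit of the percentile, median-centred scores, mean scores, shared bases only, each library left out). The 12 named differences kept their direction in all 142 fits that held them. They were picked for the smallest p in these same data, so a kept direction follows largely from the choice and is no further support. The smallest adjusted p of a member under any setting was 0.0864 for genotype, 0.0690 for population and 0.553 for the interaction. Scores stand in for read counts, and 2 libraries a group limit what a fit can call. Only regions with a peak in every library were fitted, which leaves out regions that lost their peak in a group.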
